A study of Rattus norvegicus with 180 samples.

Results

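miR-140 and miR-455 are the microRNAs best known from cartilage, and they were followed here through the organs of a rat miRNA expression atlas. Each comes from a hairpin precursor with a strand on either arm, and the array carried all 4 strands under the names rno-miR-140, rno-miR-140*, rno-miR-455 and rno-miR-455*. These 4 miRNAs, listed by name, were 4 of the 717 miRNAs of the array. The samples came from normal male Sprague-Dawley rats that were 10 weeks old and, by the study's methods, were anesthetized with ether. In 3 rats, numbered 4, 5 and 6, the blood was washed out with saline before 55 organs were taken, which gave 3 arrays of each perfused organ. In the other 3 rats, numbered 1, 2 and 3, no saline was passed, and liver, kidney, lung, heart atrium and heart interventricular septum gave 15 arrays. No gene was altered and no other agent was given in any group, and each array was hybridized with the labeled RNA of 1 organ of 1 rat.

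A microRNA is cut out of a folded hairpin transcript, and either strand of the resulting duplex can be loaded into the silencing complex. The loaded strand finds messenger RNAs mainly through its seed, the bases at positions 2 to 8, and lowers their translation or stability. miR-140 is abundant in chondrocytes, the cells that make cartilage, and mice without it have short bones and cartilage that degrades early. miR-455 is also made by chondrocytes, and like miR-140 it is encoded in the body of a protein-coding gene. No cartilage as such was among the 55 organs. The trachea, whose wall is held open by rings of hyaline cartilage, is therefore described in most detail. A piece of trachea also holds ciliated and basal epithelium, glands, smooth muscle and connective tissue, and in whole organs more cells of a type cannot be told apart from more RNA per cell.

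The sequences of the strands show that they belong to different families. RefSeq (assembly GRCr8) holds Mir140 at chr19:52375293-52375391 and Mir455 at chr5:81704834-81704911, both on the plus strand. The bounds of Mir140 lie inside those of Wwp2, a gene for a ubiquitin ligase, and those of Mir455 inside Col27a1, a gene for a fibrillar collagen of cartilage. Of the 4 strands 3 were found in the RefSeq entries as mature sequences, and rno-miR-455-5p was not among those entries. In the older names used on the array, rno-miR-140 is the 5p strand and rno-miR-140* the 3p strand. The files used here do not say which arm rno-miR-455 and rno-miR-455* stand for, so their values are given by array name only.
The hairpins are printed 5′ to 3′ with the mature strands in capitals, to show where the strands of a pair lie, and the mature strands with their seeds in capitals.
Mir140: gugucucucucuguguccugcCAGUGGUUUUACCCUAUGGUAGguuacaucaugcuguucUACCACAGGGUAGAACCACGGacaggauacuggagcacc
rno-miR-140-5p: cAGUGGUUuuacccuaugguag
rno-miR-140-3p: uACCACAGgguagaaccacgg
Mir455: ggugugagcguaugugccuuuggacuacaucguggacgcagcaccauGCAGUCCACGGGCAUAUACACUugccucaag
rno-miR-455-3p: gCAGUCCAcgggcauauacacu

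rno-miR-140-5p lies at chr19:52375314-52375335, rno-miR-140-3p at chr19:52375353-52375373 and rno-miR-455-3p at chr5:81704881-81704902. The 3 seeds differ from each other. None of the 3 was shared with another of the 693 mature rat miRNA names in the table (0 for each), so no other miRNA named there groups with them by seed.

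Levels are normalized signal intensities, that is, the background-corrected brightness of a miRNA's spots after each array was brought to a common scale. Values under 10.8 were raised to 10.8, the floor, except in the strand ratios, which used values before it. Detection on an array means that more than 50% of the spots used for a miRNA stood well above background. Each miRNA has its own probes with their own brightness, so the level of one was not set against the level of another. Where the signals of a list were summed, the brightest miRNAs carry the sum, and sums were compared between organs only. The 180 arrays lay on 23 slides scanned on 3 days. Between 86 and 244 miRNAs were detected per array, and the array signal before scaling was lowest in pancreas. The 3 trachea arrays lay on 3 slides, each scanned on a different day.

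miR-140 (rno-miR-140) was high in trachea and next in aorta, and the order of these 2 organs depended on how the arrays were scaled. Its normalized signal intensity there was 4653, 4122 and 4607 in rats 4, 5 and 6, with a mean of 4460 ± 294 (SD, n = 3 rats). In aorta, the next organ, it was 1708, 1728 and 1096 (1511 ± 359, n = 3). All 3 trachea arrays lay above all 3 aorta arrays and above every array of the other 54 organs. The mean in trachea was 2.95-fold that in aorta and 29.5-fold the median of the other organ means, which was 151. These values rest on scaling by the miRNAs that every array detected. In the authors' own table miR-140 was 10031, 9477 and 9901 in trachea and 8486, 9822 and 6410 in aorta, where the ranges overlapped. When the arrays were scaled over all miRNAs, aorta came out at 6807, 8358 and 3607 beside 5429, 5639 and 6149 in trachea.

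On the scaling used here, the levels of miR-140 below trachea and aorta formed a slope. Vein followed with 885, 229 and 784, where the array of rat 5 lay far below the other two. The blood-forming and lymphoid organs came next, with 517, 553 and 662 in bone marrow, 476, 550 and 494 in thymus, and 366, 466 and 400 in mesenteric lymph node. Of the 54 pairs of neighbors in the order of organ means, 6 did not overlap. These were trachea over aorta, aorta over vein, thymus over mesenteric lymph node, spleen over white adipose tissue, glandular stomach over eyeball, and femoris muscle over parotid gland. All other neighbors overlapped in their 3 arrays. Because neighbors come from sorting these same means, their arrays overlap easily. The share for other miRNAs was not counted, so such counts are descriptions.

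Most of the body showed miR-140 at a low but measurable level. It was detected on 161 perfused arrays and missed on 4, and 53 organs had it on all 3 arrays. Lung, the organ that continues the airway, had 119, 117 and 127 in rats 4, 5 and 6. Thyroid and esophagus, which lie against the trachea in the neck, had means of 128 ± 9.18 and 104 ± 6.67 (SD, n = 3 each). On this scaling lung, thyroid and esophagus were thus below the median of the other organ means. Cervical lymph node, also of the neck, was above it with a mean of 399. The places of these organs under other scalings were not read, and scaling moved organs unequally. The summed cartilage list described below was 8812 to 9852 in lung and 4992 to 6260 in thymus here. With scaling over all miRNAs it was 17840 to 20965 in lung and 3408 to 4365 in thymus. In pancreas miR-140 was not well above background on any of the 3 arrays. There trachea was at least 23.3-fold higher, where the lower value is the weakest signal that the pancreas arrays resolved.

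The organs were also grouped by anatomy. The 5 lymphoid and blood-forming organs had means from 374 in spleen to 577 in bone marrow, all above the highest of the 9 organs of the central nervous system, which ran from 151 in cerebral cortex to 241 in thalamus. The 8 parts of the gut from stomach to rectum ran from 107 in rectum to 302 in glandular stomach. The muscles were low, with 82.4 to 100.5 in the 3 skeletal muscles and 84.1 and 94.3 in septum and atrium of the heart. In the 3 salivary glands the means were 64.2 to 98.5. Among the 5 male reproductive organs testicle (245) stood above the other 4, whose lowest was seminal vesicle (90.3). These are descriptions by organ means on the scaling used here, with no test between systems.

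miR-140*, the other strand of the same hairpin, followed the same order at the top. In trachea it was 5103, 4491 and 3771 in rats 4, 5 and 6, with a mean of 4455 ± 667 (SD, n = 3). In aorta it was 1235, 1014 and 1502 (1250 ± 244, n = 3). On this scaling the arrays of trachea and aorta did not overlap, but in the authors' table they did (11002, 10326 and 8104 in trachea, 6136, 5764 and 8786 in aorta). On the scaling used here the mean in trachea was 3.56-fold that in aorta and 41.5-fold the median of the other organ means (107). Bone marrow (mean 569), vein (756, 170 and 576) and thymus (mean 428) followed. In vein rat 5 was lowest, as for miR-140. miR-140* was detected on 159 perfused arrays and missed on 6, and 51 organs had it on all 3 arrays. In its order 5 of the 54 neighboring pairs did not overlap. The lowest mean, 55.1, was in femoris muscle, and in pancreas, where it was not well above background, trachea was at least 23.1-fold higher.

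miR-455* (rno-miR-455*) was rarer over the body and was also highest in trachea. It was 358, 435 and 268 there in rats 4, 5 and 6, with a mean of 353 ± 83.8 (SD, n = 3). In mesenteric lymph node, the next organ, it was 60.3, 73.9 and 61.0 (65.1 ± 7.65, n = 3). The lowest trachea array was thus clear of every array of the other organs, of which the highest was 73.9. The fold over mesenteric lymph node was 5.43, and over the median of the other organ means (16.1) it was 22.0. The next organ and its distance depended on the processing. Aorta was closest with scaling over all miRNAs, quantile normalization and the authors' table (by 1.42, 1.71 and 1.73 log2 units), and with normexp background trachea came at rank 2, behind pancreas.

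On the scaling used here the order of miR-455* behind trachea differed from that of miR-140. Eyeball (48.5 ± 7.65), optic nerve (47.3 ± 5.50; SD, n = 3 each) and aorta (57.0, 50.6 and 25.5 in rats 4, 5 and 6) followed mesenteric lymph node. Cervical lymph node came next with 31.9, 48.7 and 51.9, and the arrays of these organs overlapped. Of the 54 neighboring pairs 2 did not overlap, trachea over mesenteric lymph node and mesenteric lymph node over eyeball. miR-455* was detected on 85 perfused arrays and missed on 80, with detection on all 3 arrays in 20 organs and on none in 18. Bone marrow and thymus, which were at ranks 4 and 5 for miR-140, were among the 18. Trachea was at least 11.5-fold above bone marrow and at least 18.1-fold above thymus. Over the 18 organs these lower bounds ran from 1.81 in pancreas to 32.0 in rectum with a median of 20.2.

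By system, miR-455* was detected on 24 of 27 arrays of the central nervous system, with organ means from 16.5 in thalamus to 47.3 in optic nerve, and on 9 of 15 arrays of the lymphoid and blood-forming organs. In these 5 organs the means ran from the floor in bone marrow to 65.1 in mesenteric lymph node. It was detected on 6 of 24 arrays of the gut, on 2 of 9 of the salivary glands and on 1 of 15 of the male reproductive organs. Because detection depends on the brightness of an array as well as on the level, these shares are not a ranking of systems.

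miR-455 (rno-miR-455) was near the limit of the array. It was 40.8, 40.1 and 31.6 in trachea in rats 4, 5 and 6, with a mean of 37.5 ± 5.14 (SD, n = 3). Trachea was the only organ in which all 3 arrays detected it. In mesenteric lymph node it was 12.3 and 15.2 in rats 4 and 5 and at the floor in rat 6. It was detected on 12 perfused arrays and missed on 153. The 12 were 3 of trachea, 2 each of mesenteric lymph node, aorta and bladder, and 1 each of spleen, pituitary gland and ischial nerve. On no array of the other 48 organs was it well above background. Where the dim side was bounded by the weakest resolved signal, and no lower than the floor, trachea was at least 1.04-fold to 3.44-fold higher than 47 of these 48 organs (median bound over all 48, 2.91), with liver giving the lowest of the 47. In pancreas that limit lay above the trachea level, so no fold can be given there.

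**Figure D1:**
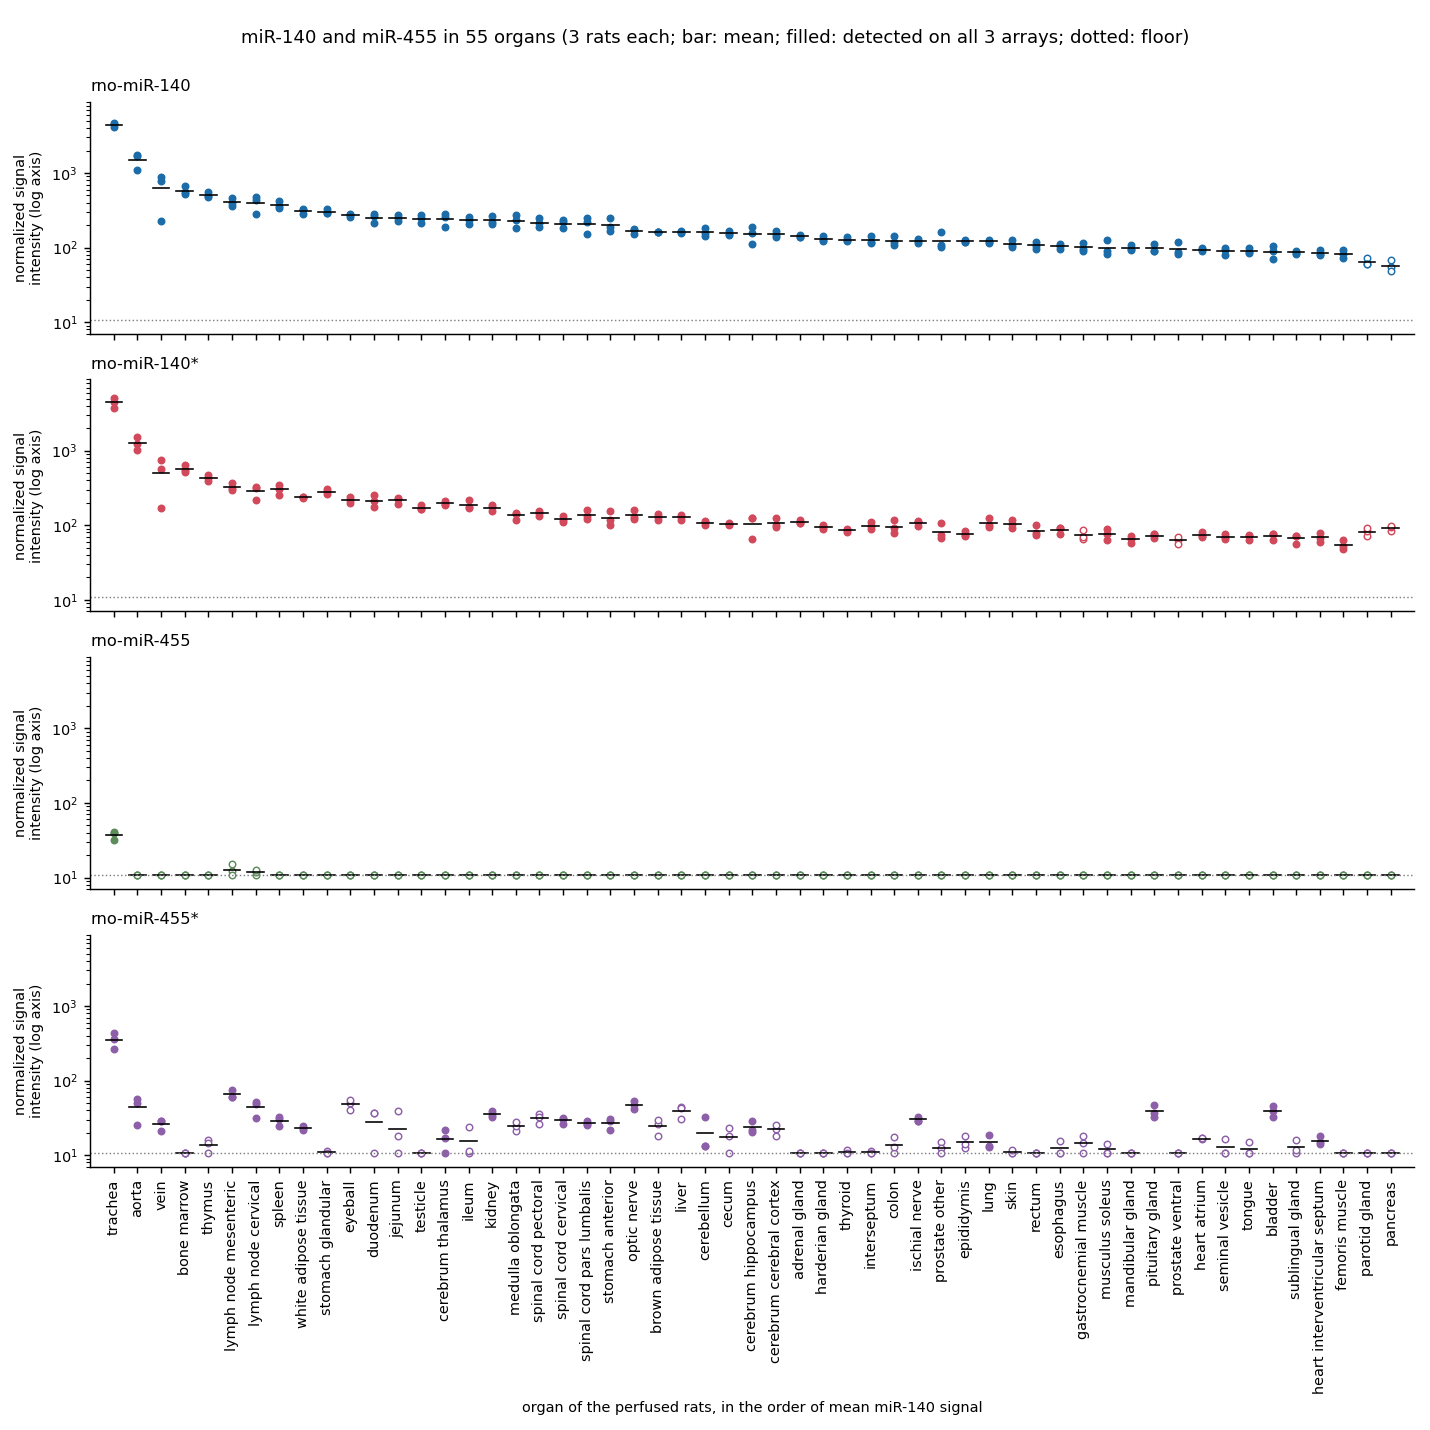
Normalized signal intensity of the 4 miRNAs (log axes) in 55 organs of the perfused rats, ordered by the mean of miR-140, with 1 point per rat and a bar at the mean of 3 rats. Filled points mark organs where the miRNA was detected on all 3 arrays and the dotted line is the floor of 10.8. On this scaling the 3 trachea points lie above all others in each panel (4653, 4122 and 4607 for miR-140), while in the authors' table the ranges of trachea and aorta overlap for miR-140 and miR-140*, and miR-455 lies at the floor in nearly all other organs.

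The rats were also read one by one, since organs of 1 rat share an animal. On the scaling used here trachea ranked 1 of 55 in each of the 3 rats for all 4 miRNAs, although in the authors' table aorta lay above trachea for miR-140 in rat 5 and for miR-140* in rat 6, and with scaling over all miRNAs for miR-140 in rats 4 and 5. For miR-140 the highest other organ within each rat was aorta, with 1708, 1728 and 1096 in rats 4, 5 and 6, while the median of the other organs in these rats was 149, 145 and 152. On that scaling no array of another organ reached the lowest trachea array of any of the 4 miRNAs (0 arrays each). For miR-455, which lay at or near the floor in the other organs, this largely sets the trachea arrays against the floor. The share of all tested miRNAs with such a separation was not counted. Trachea had the highest organ mean for 1.45% of them.

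The trachea was then set against the average of the remaining 54 organs in a limma fit over the perfused arrays. The fit took in 345 miRNAs, those that at least 1 organ showed on each of its 3 arrays, and p-values were adjusted by Benjamini-Hochberg. Differences are on the log2 scale of the floored signal. miR-140, miR-140* and miR-455* were higher in trachea, beside 15.7% of all miRNAs tested (54 of 345) that were called higher and 75.7% called in either direction. miR-455 entered the fit only through trachea, the 1 organ with detection on all 3 arrays, so this filter largely fixed its direction and its values are given as a description. The difference was 5.10 ± 0.14 (SE; adjusted p = 2.3e-61) for miR-140* and 4.74 ± 0.14 (adjusted p = 2.63e-58) for miR-140. These were the 2 largest positive differences of all 345 miRNAs. miR-455* followed with 4.23 ± 0.19 (adjusted p = 7.46e-41) at rank 4. It was detected on no array of 18 organs and lay at or near the floor in many, so the size of this difference depends in part on the floor. miR-455 was at rank 17 with 1.78 ± 0.03, but this direction turned to -0.38 when the background was corrected by normexp with an offset of 50. Because most organs were tied at the floor for miR-455, its SE describes the floor more than the spread of a level. Its difference is not a lower bound either. The weakest resolved signal lay above the floor in organs such as liver, where trachea was at least 1.04-fold higher. The median difference over all 345 miRNAs was -0.30, and scaling over all miRNAs of the array moved it to -0.13.

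**Figure D2:**
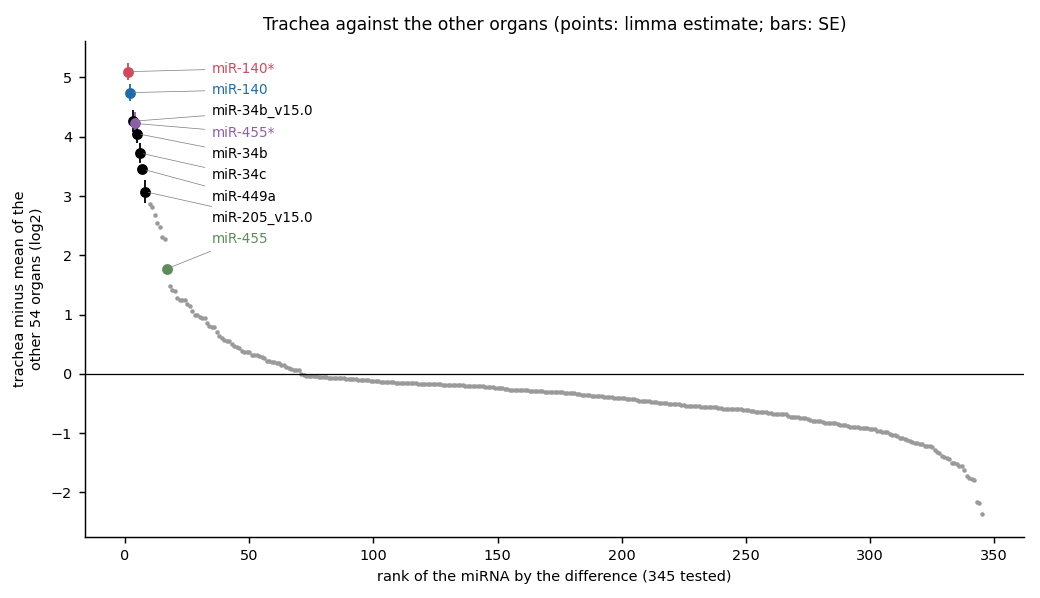
Difference of trachea from the mean of the other 54 organs (log2, vertical axis) for each of 345 miRNAs in the order of that difference (horizontal axis), from limma, with SE bars on the named miRNAs. miR-140* (5.10) and miR-140 (4.74) lie at the top, miR-455* (4.23) at rank 4 and miR-455 (1.78, a value that turns to -0.38 with normexp background) at rank 17.

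The same fit was asked whether trachea exceeded each organ singly. miR-140, miR-140* and miR-455* were each higher in trachea than in 54 of 54 organs, which held for 4 of the 345 miRNAs (1.16%). The other of the 4 was miR-455, for which this largely sets the trachea arrays against the floor, as it was not detected in 48 organs. For miR-455 no organ remained with normexp background or with a floor 4 times as high. For miR-455* 18 of the 54 organs had no array that detected it, so those contrasts are with the floor or with signal not well above background. Its difference from pancreas was 5.00 log2 units, where the bound was only 1.81-fold. For miR-455* 50 of 54 organs remained with normexp background, where trachea minus pancreas was -1.12 log2 units (adjusted p = 0.00267). Aorta was lost for both strands of miR-140 with scaling over all miRNAs, which gave 2 miRNAs higher than each organ in place of 4. The closest organ was aorta for the miR-140 hairpin. For the miR-455 hairpin it was mesenteric lymph node here, but aorta with scaling over all miRNAs, quantile normalization and the authors' table. Against aorta the log2 difference was 1.59 ± 0.20 (SE; adjusted p = 1.17e-11) for miR-140 and 1.84 ± 0.20 (adjusted p = 2.03e-14) for miR-140*, where 25.2% of miRNAs were called higher in trachea. With scaling over all miRNAs these differences were -0.04 (adjusted p = 1) and 0.21 (adjusted p = 0.587), and in the authors' table they were 0.27 (adjusted p = 0.407) and 0.52 (adjusted p = 0.036), while quantile normalization gave 1.58 and 2.06. Trachea above aorta was thus not settled for miR-140, and the cause of the dependence was not tested. Against mesenteric lymph node, where 19.4% were called higher, it was 2.42 ± 0.27 (adjusted p = 4.2e-14) for miR-455*. By the highest organ mean alone, on this scaling, trachea came first for 5 of 345 miRNAs (1.45%). Beside the 4 strands this was miR-199a-3p, a miRNA of mesenchymal cells, with 3270, 3207 and 2583 in trachea. Nearly every miRNA differed among the 55 organs (limma F, 99.7% called), and miR-140, miR-140* and miR-455* were among these.

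For miR-140 against the organs that came next, trachea was higher by 3.04 ± 0.20 (log2, SE) than vein (14.5% of miRNAs called higher in trachea), by 2.96 ± 0.20 than bone marrow (20.3%), by 3.14 ± 0.20 than thymus (22.3%) and by 3.45 ± 0.20 than mesenteric lymph node. For miR-455* the corresponding differences were 3.73 ± 0.27 for vein and 3.05 ± 0.27 for aorta. The last fell to 1.73 in the authors' table, 1.71 with quantile normalization and 1.42 with scaling over all miRNAs (adjusted p = 1.11e-08, 1.7e-11 and 2.41e-07).

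The slides with trachea held 8 arrays each, which lets trachea be set against the 7 other arrays of its own slide. For miR-140 this within-slide difference was 4.80, 4.80 and 5.28 log2 units in rats 4, 5 and 6. It was 5.23, 5.18 and 5.40 for miR-140*, and 4.39, 4.71 and 4.61 for miR-455*. For miR-455 it was 1.89, 1.82 and 1.54. The difference was thus present on each slide and scan day for these strands, for miR-455 against organs mostly at the floor, although the organs that shared the slide were not the same in the 3 rats.

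Because the array carried both strands of each hairpin, the balance of the strands could be compared between organs. The log2 signal of the star strand minus that of its partner was taken on arrays where both were detected. The 2 probes differ in brightness, so a value of 0 does not mean equal amounts, and only the change of this ratio between organs is read. The ratio of miR-140* to miR-140 was 0.13, 0.12 and -0.29 (log2) in trachea in rats 4, 5 and 6, with a mean of -0.01 ± 0.24 (SD, n = 3). Over the other organs with at least 2 such arrays the organ means ran from -0.79 to 0.23 with a mean of -0.38. Trachea ranked 2 of 54, behind parotid gland (2 arrays, mean 0.23) and next to bone marrow (mean -0.02). The rat 6 array lay among the values of many other organs, while those of rats 4 and 5 lay above every array outside parotid gland and aorta.

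The trachea ratio exceeded the mean of the other organs by 0.37 ± 0.10 (log2, SE; adjusted p = 0.00744, moderated fit over the 15 hairpins that could be tested of the 259 with both strands on the array). Of the 15 hairpins 13.3% were called in either direction. The call rests on single arrays, since without the trachea array of rat 4 the difference was 0.30 (adjusted p = 0.177) and without that of rat 5 it was 0.30 (adjusted p = 0.13). Each of the 4 combinations of the 2 probes of either strand gave a difference of 0.32 to 0.50. The ratio of miR-140 also varied among organs as a whole (F = 3.23, adjusted p = 1.84e-07), as 93.3% of the hairpins did. Its organ means spanned 1.03 log2 units.

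**Figure D3:**
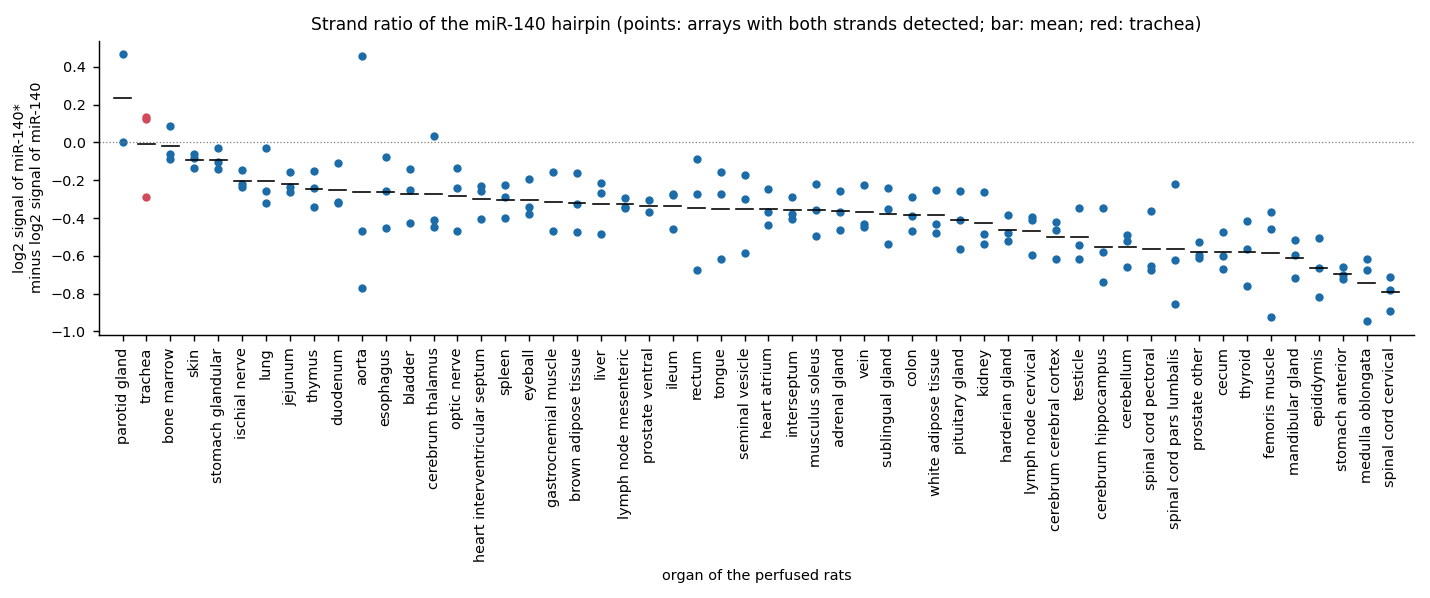
Log2 signal of miR-140* minus log2 signal of miR-140 (vertical axis) for each array of the perfused rats where both were detected, by organ in the order of the mean (bars). Trachea (red; 0.13, 0.12 and -0.29) ranks 2 of 54, and the organ means run from -0.79 to 0.23.

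The ratio changed between other organs too. Aorta, the organ second to trachea in level, had ratios of -0.47, -0.77 and 0.45, which is a wider spread than in trachea. At the low end were cervical spinal cord (-0.71, -0.78 and -0.89 in rats 4, 5 and 6), medulla oblongata (-0.61, -0.67 and -0.95) and anterior stomach. The 2 parts of the stomach lay far apart in the order, with -0.66, -0.72 and -0.70 in the anterior part and a mean of -0.09 in the glandular part. The 9 organ means of the central nervous system ran from -0.79 to -0.27. The ratio showed little relation to the level of miR-140 across organs (Pearson r = 0.19 over 54 organs and 0.05 over the 53 without trachea), as a description of organ means that share rats, slides and scaling.

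For the miR-455 hairpin the strand ratio could be read on few arrays, because rno-miR-455 was rarely detected. The log2 ratio of miR-455* to miR-455 was 3.13, 3.44 and 3.08 in trachea in rats 4, 5 and 6. It was 3.13 and 3.07 in bladder, 2.81 and 2.76 in aorta and 2.29 and 2.28 in mesenteric lymph node, on 2 arrays each. The trachea values overlapped with those of bladder and lay above those of aorta and mesenteric lymph node. With 4 organs of at least 2 arrays no test was made, and arrays with a low miR-455 drop out of this ratio, so the values are those of the arrays where it was brightest. Except in trachea and mesenteric lymph node, the miR-455 signal behind these ratios was below the floor used elsewhere.

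The strands of a hairpin and the hairpins themselves were then compared over the organs. Over 55 organ means of log2 signal, miR-140 and miR-140* had a Pearson r of 0.976 and a Spearman rho of 0.96, and without trachea r was 0.964. miR-140 and miR-455* had r = 0.655 and rho = 0.491. Without trachea r fell to 0.465 and rho was 0.462. Over the 19 other organs with miR-455* detected on all 3 arrays r was 0.351 and rho 0.295. The linear correlation of the 2 hairpins thus rested in part on trachea, while their rank correlation over the 55 organs changed little without it. For the 2 strands of miR-140 r also changed little. The organ means share rats, slides and scaling, and miR-455* was at the floor in many organs, so these values are descriptions.

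**Figure D4:**
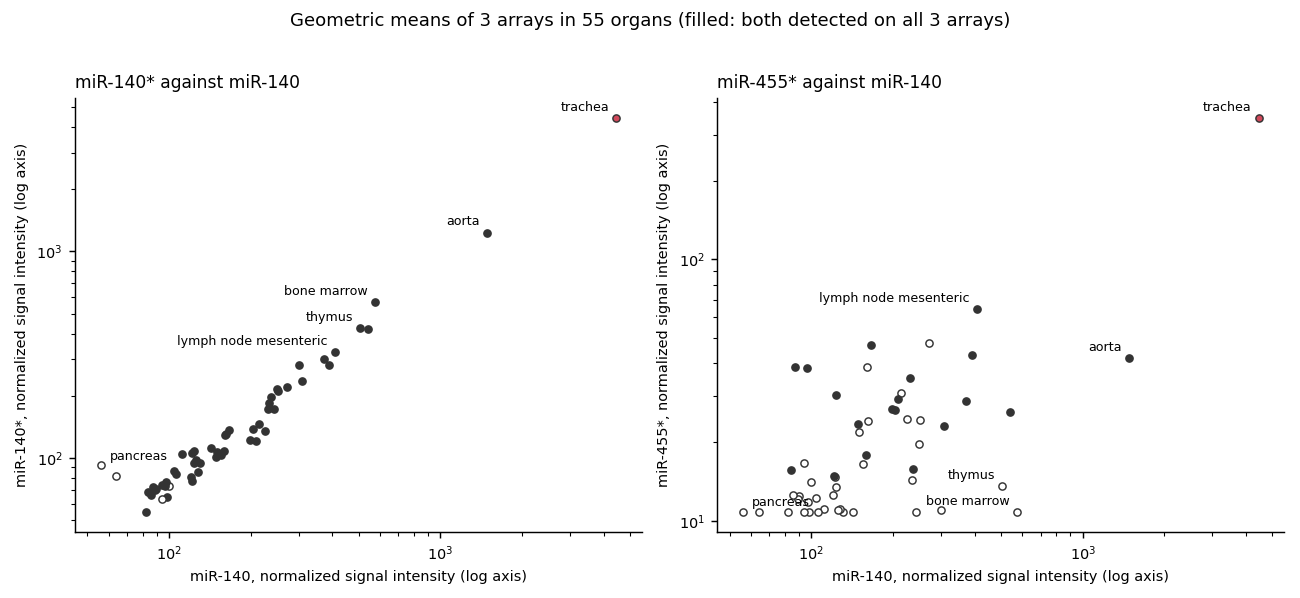
Organ means (geometric means of 3 arrays, log axes) of miR-140* (left) and miR-455* (right) against miR-140 in 55 organs, with filled points where both were detected on all 3 arrays and trachea in red. The left panel is a narrow band (r = 0.976). The right panel is scattered, with r = 0.655 and rho = 0.491 over all organs and r = 0.465 and rho = 0.462 without trachea.

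When all 343 tested miRNAs outside the hairpin were ranked by their correlation with each strand over the 55 organs, trachea included, the strands of the other hairpin came first. For miR-140 these were miR-455* (r = 0.655) and miR-455 (0.604), followed by miR-16 (0.403), a broadly expressed miRNA that is abundant in blood cells. For miR-140* they were miR-455* (0.633) and miR-455 (0.627), and then miR-142-5p (0.403), a miRNA of leukocytes. miR-455* was nearest to miR-140 and miR-140* and then to miR-130a (0.367), and miR-455 to miR-140*, miR-140 and then miR-449a (0.313), a miRNA of ciliated cells. For both strands of miR-140 this order rested on trachea, and for miR-455* in part. Without trachea miR-140 correlated more with miR-16 (0.499) than with miR-455* (0.465), and miR-140* more with miR-142-5p (0.497) than with miR-455* (0.416). For miR-455* without trachea miR-140 (0.465) lay ahead of miR-130a (0.425) and miR-140* (0.416) behind it. The means of miR-455 were at or near the floor in the organs other than trachea, so its correlations describe little but trachea and give no order without it.

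The trachea samples were checked against markers of the tissues a trachea can hold. Of 4 miRNAs listed for ciliated epithelium 3 were on the array under the listed name, and these 3 were higher in trachea, where 15.7% of all miRNAs were. The array has the fourth, miR-449c, as miR-449c-5p and miR-449c-3p, and neither was well above background on any perfused array. miR-34b (4.05 ± 0.16), miR-34c (3.73 ± 0.16) and miR-449a (3.46 ± 0.07; log2, SE) were, with the array's further entries miR-34b_v15.0 (4.26 ± 0.18) and miR-205_v15.0 (3.08 ± 0.20), the 5 largest differences outside the 4 strands. Of 5 epithelial miRNAs of the miR-200 family 5 were higher, and of 3 mesenchymal miRNAs (miR-199a-3p, miR-199a-5p and miR-214) 3 were higher, by 2.54 to 2.82. Of 2 basal epithelial miRNAs miR-205 was higher and miR-203 lower. The 3 neural miRNAs (miR-124, miR-9 and miR-9*) were not well above background on any trachea array.

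The marker lists were also summed in the organs next to trachea in miR-140, and in lung, thyroid and esophagus. The summed signal of the ciliated list was 659 to 739 in trachea and 285 to 574 in lung, where miR-140 was near 121, and all 3 were at the floor in aorta (summed 32.5), the organ second in miR-140. The epithelial list summed to 2491 to 3721 in trachea, to 4298 to 5176 in thyroid and to 54.2, the floor, in aorta. The smooth muscle list (miR-143 and miR-145) summed to 2165 to 3793 in trachea and to 10812 to 16344 in aorta. In trachea this sum was mostly miR-143 (mean 2725) with little miR-145 (mean 47.3). The mesenchymal list was 3614 to 4543 in trachea, 1645 to 3073 in aorta, 2593 to 3502 in vein and 222 to 358 in thymus. The order of trachea and aorta in this list depended on the scaling. With scaling over all miRNAs its sums were 4823 to 6168 in trachea and 5416 to 13581 in aorta, and the authors' values gave 7767 to 10365 and 9624 to 15961. The ciliated sums of lung reached 646 to 1312 with scaling over all miRNAs, which spans those of trachea (822 to 1011). The part of these lists in the levels of miR-140 and miR-455 was not tested.

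One trachea array held more signal of 3 striated muscle miRNAs than the other two. miR-1, a miRNA of heart and skeletal muscle, was 37.6, 24.1 and 599 in trachea in rats 4, 5 and 6, and miR-133b was 124, 164 and 965. miR-206, of skeletal muscle, was at the floor in rats 4 and 5 and 137 in rat 6. miR-133a, the other of the 4 on the list, was not well above background on any trachea array (at the floor in rats 4 and 5 and 15.1 in rat 6). Of the 4, 0 were called higher in trachea, miR-133a was lower by -1.05 ± 0.34 (log2, SE; adjusted p = 0.00426) and 3 were not called. On the array of rat 6 miR-140 was 4607, inside the range of the other two, while miR-140* (3771), miR-455 (31.6) and miR-455* (268) were the lowest of the 3. Without each rat, or each trachea array, in turn the differences from the other organs stayed between 4.70 and 4.80 for miR-140 and between 4.06 and 4.41 for miR-455*. Whether the muscle signal bears on the strand ratio of this array, which was the lowest of the 3, was not tested. Of 4 leukocyte and 2 endothelial miRNAs 0 were called higher in trachea, beside 15.7% of all miRNAs, and miR-150, of leukocytes, was lower, as were 60% of all.

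Other miRNAs described in cartilage or chondrocytes differed from the other organs in both directions. Of 16 listed, 14 were on the array and 12 were tested, of which 6 were higher in trachea, 2 were lower and 4 were not called, beside 15.7% of all miRNAs higher and 60% lower. Their median difference was 0.23 beside -0.30 for all 345. The largest were miR-199a-3p (2.82 ± 0.28) and miR-199a-5p (2.68 ± 0.27), which are also on the mesenchymal list. miR-193 (0.56 ± 0.18), miR-337 (0.43 ± 0.15), miR-27a (0.32 ± 0.10) and miR-27b (0.26 ± 0.11) were higher by less. miR-210, a miRNA of the hypoxia response, was lower by -1.15 ± 0.18, and miR-29b, which targets collagen transcripts, by -0.43 ± 0.13. miR-675, which is made from H19 and described in chondrocytes, and miR-483, which lies in the Igf2 gene, were at the floor in trachea. Neither was detected on all 3 arrays of any perfused organ, so their floor values say little about trachea. The array also has entries for their star strands, which were not on the list. Of the 12 tested only miR-199a-3p had its highest organ mean in trachea. The 14 on the array summed to 11813 to 12215 in trachea, which lay within the 11305 to 13653 of vein and overlapped the 10270 to 12026 of mesenteric lymph node and the 8648 to 11950 of aorta. In the authors' values the sums were lower in trachea (25379 to 27717) than in vein (34498 to 45806) and aorta (50447 to 61398).

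No change of the miR-140 and miR-455 strands with the washing out of blood was detected. In kidney, the highest of the 5 organs, miR-140 was 267, 220 and 210 with perfusion (rats 4, 5 and 6) and 229, 196 and 216 without it (rats 1, 2 and 3). In lung it was 119, 117 and 127 with perfusion and 122, 126 and 169 without. In liver miR-455* was 44.1, 42.8 and 30.8 with perfusion and 34.1, 27.3 and 34.0 without, detected on 1 array of each group. The groups overlapped in all 3 cases.

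Of the 15 pairs of a strand and an organ that could be tested none was called by limma (0 of 15, and 0 at an unadjusted p under 0.05; lowest adjusted p = 0.843), beside 0 of 191 miRNAs called in each of the 5 organs (0%). None of the 15 pairs had groups that did not overlap. Over all miRNAs tested this share was 6.28% for liver, 3.66% for kidney, 7.33% for lung, 4.19% for the atrium, 3.14% for the septum and 4.92% overall. The largest of the 15 differences (perfused minus not perfused) were 0.29 ± 0.18 (log2, SE) for miR-455* in liver and -0.22 ± 0.14 for miR-140* in lung. miR-455 was detected on 0 of the 15 arrays without perfusion and was not tested. With 3 rats a group these tests do not show that the levels were equal, and perfused and not perfused rats were different animals. The paper reports that blood-cell-specific miRNAs could be seen in these organs without perfusion but not with it. As the fit called no miRNA at all in these organs, its lack of calls for the strands says little.

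The probes behind the values were compared as well. The 2 probes of miR-140 correlated over arrays with r = 0.999, those of miR-140* with r = 0.995 and those of miR-455* with r = 0.977 (log2 signal over the arrays that detected the miRNA, 176, 174 and 96). The 2 probes of miR-140* differed by a median of 1.82 log2 units in brightness and those of miR-140 by 0.36, while miR-455 had 1 probe with 20 spots. The order of organs was thus read alike by different probes of a strand, while the height of a level depended on the probe.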

How the data were processed

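RNA was measured on 1-color Agilent rat miRNA arrays, 180 in all. For every array the authors deposited scanner output (Agilent Feature Extraction 10.7.3, per the submitters' processing notes) with a background-corrected spot intensity and, as other values, flags for outlier spots and spots well above background; they also deposited a table of normalized signal intensity for 715 miRNAs and 21 control rows, used here as an alternative. No column was left unmatched (0).

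From the deposited intensity, outlier spots were left out, spots were averaged per probe and probes per miRNA, and each array was divided by its 75th percentile, taken over 37 miRNAs that no array missed, and multiplied by the mean percentile of 2118. Lower values were raised to a floor of 10.8 before log2. Strand ratios used values before the floor. The 75th percentile before scaling ran from 68.0 to 6343, which with the number of arrays limits the precision. No miRNA spot was saturated (0).

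limma 3.58.1 (R 4.3.3) was fitted with 1 term per organ, two-sided, with Benjamini-Hochberg adjustment over all miRNAs tested and a threshold of 0.05. Strand ratios had their variances moderated over the hairpins tested. A bound ("at least") compares the mean log2 in trachea with, per array, the higher of the lowest signal among detected probes and the miRNA's own, no lower than the floor. Arrays with 1 rat number come from the same rat, so numbers pair organs; residuals of arrays of 1 rat correlated by 0.033, 0.061 and 0.054 on average in rats 4, 5 and 6, of different rats by -0.025, and of 1 rat on 1 slide by 0.171. For 8 arrays, none of them trachea (0), the labels give 2 rat numbers; the number in the sample's title was used. In simulated data, 94% of planted trachea differences of 1 log2 unit were found over 345 miRNAs, 96.67% over 15 strand ratios and 98% for perfusion in liver over 191 miRNAs. The simulated noise was independent between arrays, with no floor and no rat or slide in common. No planted difference was smaller than 1 log2 unit, so these rates do not cover the strand ratio difference of 0.37 or the perfusion differences, up to 0.29.

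The members and lists were chosen with earlier results of these data known. The miRNAs named were the 4 strands, the 3 nearest in pattern to each, the 5 with the largest rise in trachea outside the strands, and the lists; the cartilage list counts miRNAs described in cartilage or chondrocytes. Alternatives changed the scaling, floor, background, spot summary, filter, blocks and arrays. The normexp alternative used the median spot signal in place of the mean, which the files used here do not hold. Sequences are RefSeq's (GRCr8). Figures were drawn with Python 3.11.15 and matplotlib 3.10.9.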

Additional observations from a re-analysis of the deposited data

How the results depend on the processing

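Over the alternatives tried, the difference of trachea from the other organs ran from 4.06 to 5.34 log2 units for miR-140, from 4.30 to 5.82 for miR-140* and from 1.76 to 4.71 for miR-455*, always positive and past the threshold where it was tested. Within single slides, a description without a test, it moved by more than the spread of the trachea arrays for rat 6 (5.28 for miR-140, 5.40 for miR-140*, 1.54 for miR-455 and 4.61 for miR-455*) and for rat 5 (4.71 for miR-455*). For miR-455, given as a description because it entered the fit only through trachea, the difference turned to -0.38 with normexp background. It was -0.33 when the 6 arrays with a 10th percentile over 100 in that setting were left out. None of them was trachea (0), and leaving them out was chosen after seeing the data. With a floor 4 times as high, all its values lay on the floor, and the difference and F became 0. Trachea then exceeded 0 of 54 organs for miR-455, also 0 with normexp background. Trachea exceeded 53 of 54 organs, all but aorta, for miR-140 with scaling over all miRNAs (-0.04 log2 units against aorta) and in the authors' table (0.27), and for miR-140* with scaling over all miRNAs (0.21). For miR-455* it exceeded 50 of 54 with normexp background, where pancreas lay above it, and 54 of 54 on the other scalings. Leaving out the pancreas arrays, or the aorta arrays for the strand ratio, changed no call, and both were chosen after seeing the data. miR-455 was not tested under the filter on miRNAs detected on at least 50% of arrays, so it has no value there. With the replicate block (rat as a term) the differences were 4.74, 5.10, 1.78 and 4.23 for miR-140, miR-140*, miR-455 and miR-455*, the strand ratio 0.37 (adjusted p = 0.00444), and no call changed. No paired analysis was possible for perfusion because the 2 conditions share no rat number. The strand ratio of miR-140 ran from 0.25 to 0.51 (adjusted p from 2.04e-05 to 0.276). It was no longer past the threshold without replicate 4 (0.34, adjusted p = 0.113) or 5 (0.31, adjusted p = 0.276), or without the trachea array of rat 4 (0.30) or 5 (0.30). Leaving out replicates in turn gave 0.30 to 0.51 for this ratio, 1.71 to 5.00 for its F over organs, 4.70 to 4.80 for miR-140, 4.99 to 5.21 for miR-140*, 1.71 to 1.89 for miR-455 and 4.06 to 4.41 for miR-455*. The perfusion count was 0 in all 16 alternatives, with a lowest adjusted p of 0.0739. Among called miRNAs 20.7% were higher in trachea, but 33.3% when scaled over all miRNAs or in the authors' table and 31.0% after quantile normalization. Signal over background limits the values of miR-455 and those of arrays of low signal such as pancreas.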
